A study of Mus musculus with 6 samples.

Results

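MHC class I antigen presentation was followed in mouse liver through 10 genes, namely the heavy chains H2-K1 and H2-D1, the light chain B2m, the peptide-loading genes Tap1, Tap2 and Tapbp, the immunoproteasome subunits Psmb8, Psmb9 and Psmb10, and the transactivator Nlrc5. They were chosen by name, and their probes were found through the RefSeq accession that the array gives for each probe. The 10 genes had 12 probes among 55681 probes, and they made up 10 of 37074 genes on the array and 10 of the 22342 genes that were tested. Where RefSeq gave no symbol, the array's own name for a probe counts as a gene here. The shares of all genes given below cover such entries too. Each of the 12 probes gave a signal well above background in every pool. Of the 10 genes, 7 lie on chromosome 17, 2 on chromosome 8 (Psmb10 and Nlrc5) and 1 on chromosome 2 (B2m).

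The question was how the liver differs at baseline when hepatocytes express NPC1L1, a transporter that takes cholesterol back up from bile. L1-Tg mice were hemizygous males of the line B6;D2-Tg(APOE-NPC1L1)20Lqyu/J, which carries human NPC1L1 under the ApoE promoter, and WT mice were their male littermates without the transgene. Both genotypes came from a line backcrossed to C57BL/6J for at least 8 generations, were 6 to 12 weeks old, and ate a control-fat diet with no drug. Each of the 3 L1-Tg and 3 WT arrays held liver RNA pooled from 2 or 3 mice, so that p-values here measure the spread between pools and not between single mice. The line is 1 transgenic line, and the insertion site of the transgene is not given in the sources used here. The 2 strains in the name of the line differ in MHC haplotype as a matter of background, and the haplotype of the pooled mice is not given in the sources used here.

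MHC class I molecules show peptides from inside the cell to CD8 T cells and to natural killer cells. The proteasome cuts proteins into peptides, the TAP transporter carries these into the endoplasmic reticulum, tapasin helps load them onto the heavy chain and B2m, and the loaded complex moves to the surface. Interferon raises the genes of this route together, partly through Nlrc5, and replaces the 3 standard catalytic subunits of the proteasome with Psmb8, Psmb9 and Psmb10. Nearly all nucleated cells carry class I, hepatocytes at a low level beside the Kupffer cells, endothelial cells and lymphocytes of the liver. In whole liver, more cells of a type and more RNA per cell cannot be told apart.

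The promoters of the heavy chains, of B2m and of the Tap1 and Psmb9 pair are shown because they hold, or lack in the searched form, the letters through which this route is known to be controlled. RefSeq windows of 300 bases (250 before and 50 after the start, GRCm38.p6) were matched for 8 of the 10 genes, with 2 starts for H2-K1. Bases before the start are printed 5′ to 3′ on the strand of the gene, and capitals mark letters that were searched for on both strands. The H2-K1 stretch is chr17:34000348-34000597 (minus strand), the H2-D1 stretch chr17:35262844-35263093 (plus strand), the B2m stretch chr2:122147437-122147686 (plus strand), and the last line is the whole stretch between the starts of Psmb9 and Tap1, chr17:34187331-34187555, on the strand of Tap1.
H2-K1: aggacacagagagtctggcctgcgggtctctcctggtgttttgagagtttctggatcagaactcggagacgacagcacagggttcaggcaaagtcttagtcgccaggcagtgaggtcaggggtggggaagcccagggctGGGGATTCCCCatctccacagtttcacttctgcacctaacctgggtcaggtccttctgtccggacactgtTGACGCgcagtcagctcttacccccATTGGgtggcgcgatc
H2-D1: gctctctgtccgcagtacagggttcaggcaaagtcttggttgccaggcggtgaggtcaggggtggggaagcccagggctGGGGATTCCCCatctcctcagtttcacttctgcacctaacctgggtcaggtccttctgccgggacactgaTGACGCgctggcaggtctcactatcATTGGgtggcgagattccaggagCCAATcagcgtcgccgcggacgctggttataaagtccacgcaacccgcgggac
B2m: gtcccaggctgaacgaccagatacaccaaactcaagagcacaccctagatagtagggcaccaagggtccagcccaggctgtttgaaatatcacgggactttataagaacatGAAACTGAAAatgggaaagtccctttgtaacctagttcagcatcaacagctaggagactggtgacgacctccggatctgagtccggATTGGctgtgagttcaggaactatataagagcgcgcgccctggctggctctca
Psmb9 to Tap1: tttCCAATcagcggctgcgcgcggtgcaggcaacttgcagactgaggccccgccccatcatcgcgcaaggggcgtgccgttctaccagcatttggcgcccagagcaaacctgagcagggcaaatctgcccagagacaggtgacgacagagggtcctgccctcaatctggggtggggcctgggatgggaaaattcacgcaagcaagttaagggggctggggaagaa

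The letters of the enhancer A site that NF-kB binds (4 G, ATT and 4 C, the first run of capitals in both heavy chain stretches) were found in the promoters of both heavy chains, from -111 to -101 in the H2-K1 stretch shown and from -171 to -161 in that of H2-D1. Only 10 of 32851 promoter windows (0.0304%) held these letters, and 3 of the 10 were the 2 windows of H2-K1 and the window of H2-D1. Placed on this site with no gap, the H2-K1 and H2-D1 stretches shared 166 of 190 bases (87.4%). The X2 letters of the class I SXY module, TGACGC, were in the same 3 windows and in 7.4% of all windows. The core of the interferon-stimulated response element (GAAA, any 2 bases, GAAA) was found in B2m alone among the 9 windows, from -139 to -130, and in 3.44% of all windows. The gamma-activated site TTCNNNGAA was in the Psmb8 window, from -97 to -89, and in 8.3% of all windows. The Y box CCAAT was in 7 of the 9 windows and in 37.4% of all, and it was the only searched motif found in the windows of Tap1 and Psmb9. Forms of these elements that differ from the searched letters were not looked for. A window with no match may therefore still hold such a form. The hits are matches of letters and say nothing of binding in these livers.

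All values below are log2 signals relative to the 75th percentile of the same array, which is 0 on this scale. The 75th percentile stood at 296 to 378 intensity units, 53.1% to 59.2% of spots were well above background and no spot was saturated. Arrays of 1 genotype correlated at 0.985 to 0.994 and arrays of different genotypes at 0.979 to 0.992 across the tested genes. The 6 arrays shared 1 slide, with WT in the first row and L1-Tg in the second, so that row and genotype cannot be told apart. The transgene is human and no mouse probe checks it. The mouse Npc1l1 probe read -3.95, -4.24 and -4.34 in L1-Tg and -3.84, -3.65 and -3.48 in WT, and was well above background on 3 of the 6 arrays.

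The mean of each of the 10 class I genes was higher in L1-Tg than in WT, by 0.05 to 0.55 on the log2 scale (1.04-fold to 1.46-fold), while 42.8% of all tested genes had a higher mean in L1-Tg. The median of the 10 differences was 0.40 (1.32-fold) against -0.03 over all tested genes. None of the 10 passed the adjusted threshold of 0.05 in limma over all genes (adjusted p from 0.481 to 0.879), where 0.13% of all genes did. An unadjusted p under 0.05 was found for 4 of them (H2-K1, Tap1, Tapbp and Psmb8), all higher in L1-Tg, against 8.88% of all genes, 4.51% higher and 4.38% lower. In 2 genes, Tapbp and Psmb8, every L1-Tg pool lay above every WT pool, which held for 7.21% of all genes, while 8.71% had every L1-Tg pool below every WT pool. The 10 genes share the same 6 arrays and are not independent of each other.

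**Figure D1:**
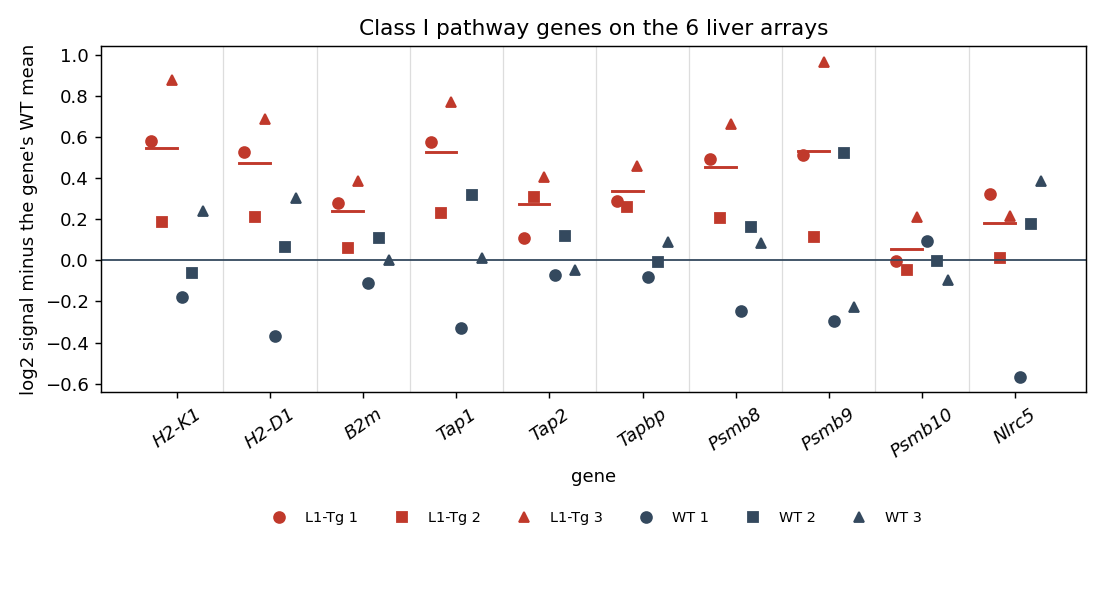
Each column is 1 gene, and each point is 1 array, as its log2 signal minus the mean of the 3 WT arrays for that gene. Red points are L1-Tg pools, dark points WT pools, shapes give the replicate number, and red lines are the L1-Tg means. L1-Tg 3 (red triangles) is the highest array for 9 genes and WT 1 (dark circles) the lowest for 9 genes.

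H2-K1 encodes a classical heavy chain, the chain that holds the peptide. Its log2 signal was 8.47, 8.08 and 8.77 in the L1-Tg pools and 7.72, 7.83 and 8.13 in the WT pools. L1-Tg 1 and L1-Tg 3 lay above all WT pools, and L1-Tg 2 lay just under WT 3, so the groups overlapped. The difference was 0.55 (SE 0.20, 95% interval 0.06 to 1.04, limma adjusted p = 0.538, unadjusted p = 0.0332), or 1.46-fold. A second H2-K1 probe read 7.16, 7.01 and 7.53 in L1-Tg and 6.41, 6.62 and 7.01 in WT, with a difference of 0.56. L1-Tg 2 and WT 3 were level at this probe, and the order of the other pools was the same with both probes.

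H2-D1 encodes the other classical heavy chain of C57BL/6 mice. It read 7.52, 7.21 and 7.69 in L1-Tg and 6.63, 7.06 and 7.30 in WT. Here too L1-Tg 1 and L1-Tg 3 were above all WT pools and L1-Tg 2 was under WT 3. The difference was 0.48 (SE 0.21, 95% interval -0.02 to 0.98, limma adjusted p = 0.564), and without WT 1 it was 0.29. Class I heavy chain genes are close copies of each other, so that a probe may also take up RNA of a related gene. The extent of this was not tested.

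B2m encodes the light chain that every classical heavy chain needs to reach the surface. It read 8.46, 8.25 and 8.57 in L1-Tg and 8.08, 8.30 and 8.19 in WT. WT 2 stood above L1-Tg 2, and the other 2 L1-Tg pools were above all WT pools. The difference was 0.24 (SE 0.12, 95% interval -0.05 to 0.53, limma adjusted p = 0.597), or 1.18-fold.

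Tap1 and Tap2 encode the 2 chains of the transporter that brings peptides into the endoplasmic reticulum. Tap1 read 0.55, 0.20 and 0.74 in L1-Tg and -0.36, 0.29 and -0.02 in WT. L1-Tg 2 lay between WT 3 and WT 2, and WT 1 was the lowest pool. The difference was 0.53 (SE 0.21, 95% interval 0.02 to 1.03, limma adjusted p = 0.555, unadjusted p = 0.0441), or 1.44-fold.

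Tap2 read 3.37, 3.57 and 3.66 in L1-Tg and 3.18, 3.38 and 3.21 in WT. The groups overlapped at 1 pair of pools, where L1-Tg 1 was 3.37 and WT 2 was 3.38. The difference was 0.28 (SE 0.12, 95% interval -0.00 to 0.55, limma adjusted p = 0.560), or 1.21-fold.

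Tapbp encodes tapasin, which holds the empty heavy chain at the transporter. It read 3.59, 3.56 and 3.76 in L1-Tg and 3.22, 3.29 and 3.39 in WT. All 3 L1-Tg pools were above all 3 WT pools, and the pools within each group lay closer together than for any of the other 9 genes (SD 0.11 in L1-Tg and 0.09 in WT). The difference was 0.34 (SE 0.10, 95% interval 0.09 to 0.58, limma adjusted p = 0.481, unadjusted p = 0.0150), or 1.26-fold. This was the smallest p among the 10 genes, and the exact two-sided permutation p over the 6 pools was 0.1, the smallest that 3 against 3 can give.

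Psmb8 encodes the immunoproteasome subunit that takes the place of Psmb5. It read 3.30, 3.01 and 3.47 in L1-Tg and 2.56, 2.97 and 2.89 in WT. The groups did not overlap, with a narrow gap between L1-Tg 2 and WT 2. The difference was 0.46 (SE 0.17, 95% interval 0.05 to 0.86, limma adjusted p = 0.533, unadjusted p = 0.0317), or 1.37-fold, and the exact two-sided permutation p was 0.1.

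Psmb9, which replaces Psmb6, shares its promoter stretch with Tap1 as printed above. It read 3.32, 2.92 and 3.77 in L1-Tg and 2.51, 3.33 and 2.58 in WT. WT 2 was above both L1-Tg 1 and L1-Tg 2, and the spread between pools was wide (SD 0.43 in L1-Tg and 0.46 in WT). The difference was 0.53 (SE 0.30, 95% interval -0.18 to 1.25, limma adjusted p = 0.622), close in size to that of Tap1 but with a wider interval. Without L1-Tg 3 it was 0.31.

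Psmb10, which replaces Psmb7 and lies outside the MHC, read 5.35, 5.30 and 5.56 in L1-Tg and 5.45, 5.35 and 5.26 in WT. The pools of the 2 genotypes were mixed, with L1-Tg 3 highest and WT 3 lowest. The difference was 0.05 (SE 0.11, 95% interval -0.21 to 0.32, limma adjusted p = 0.879), the smallest of the 10. Without L1-Tg 3 it was -0.024.

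Nlrc5 encodes the transactivator that acts through the SXY module of class I promoters. It read 2.17, 1.86 and 2.07 in L1-Tg and 1.29, 2.03 and 2.24 in WT. WT 1 stood apart at the bottom, and WT 3 was the highest pool, so the groups overlapped. The difference was 0.18 (SE 0.25, 95% interval -0.43 to 0.80, limma adjusted p = 0.820), and without WT 1 it was -0.10. A second, dimmer Nlrc5 probe gave a difference of 0.03.

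**Figure D2:**
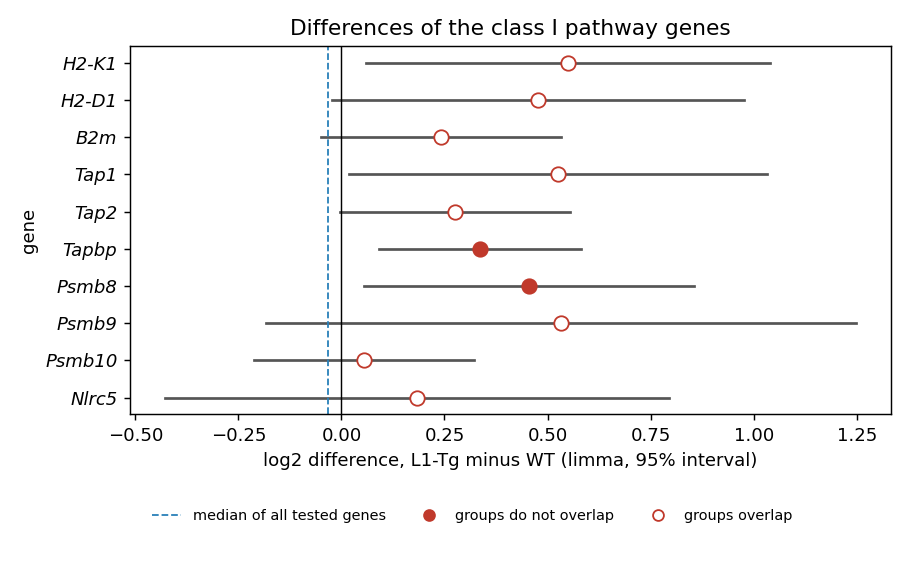
Points are log2 differences, L1-Tg minus WT, for the 10 genes, and bars are limma 95% intervals. Filled points are the 2 genes whose groups do not overlap, and the dashed line is the median of all tested genes (-0.03). The intervals of H2-K1, Tap1, Tapbp and Psmb8 lie above 0, and none of the 10 passed the adjusted threshold.

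The criterion of the published methods is a difference index, the difference of the group means divided by the sum of the 2 SDs on the linear scale, with a modulus over a fixed limit. By this index 7 of the 10 genes were past 0.7, all higher in L1-Tg, against 30.3% of all genes on the array in either direction, 8.61% higher, and 11.7% higher among tested genes alone. The index ran from 0.226 for Nlrc5 to 1.69 for Tapbp, and Psmb9, Psmb10 and Nlrc5 were under 0.7. Where a 2-fold change was asked for as well, none of the 10 was left, and with a modulus over 1 there were 3. The shares of all genes under these 2 stricter criteria are not given here, so these counts cannot be set against them. The index carries no p-value.

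The differences were uneven among pools of 1 genotype. Relative to the WT mean of each gene, the median over the 10 genes was 0.41, 0.20 and 0.56 in the L1-Tg pools and -0.21, 0.12 and 0.05 in the WT pools. L1-Tg 3 was above the WT mean for all 10 genes and WT 1 for 1 gene. L1-Tg 3 was the highest of the 6 arrays for 9 genes, all except Nlrc5, and WT 1 the lowest for 9 genes, all except Psmb10. Leaving out L1-Tg 3 or WT 1 brought the median difference to 0.29 in each case. The number of the 10 genes with an unadjusted p under 0.05 went from 4 to 0 without L1-Tg 3, to 1 without WT 1 and to 2 without L1-Tg 1. Over all tested genes it went from 1985 of 22342 to 1146 of 22749, 1920 of 22643 and 1500 of 22482. The mean stayed higher in L1-Tg for 9 or 10 of the 10 genes whichever pool was left out.

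For 3 of the genes, B2m, H2-K1 and Tap1, the array had the representative probe spotted more than once, which separates the error of a spot from the spread between arrays. The 10 H2-K1 spots had an SD of 0.04 to 0.08 within an array, against 0.35 between L1-Tg pools and 0.21 between WT pools. The 10 Tap1 spots had an SD of 0.04 to 0.09 within an array, against 0.27 and 0.32 between pools. The 2 B2m spots had an SD of up to 0.06, against 0.16 and 0.11. The spread between pools of these genes was therefore larger than the spread between spots of the same probe on 1 array. Each pool was read on 1 array, so its spread also holds any error of labelling, hybridisation and scaling, which was not measured.

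**Figure D3:**
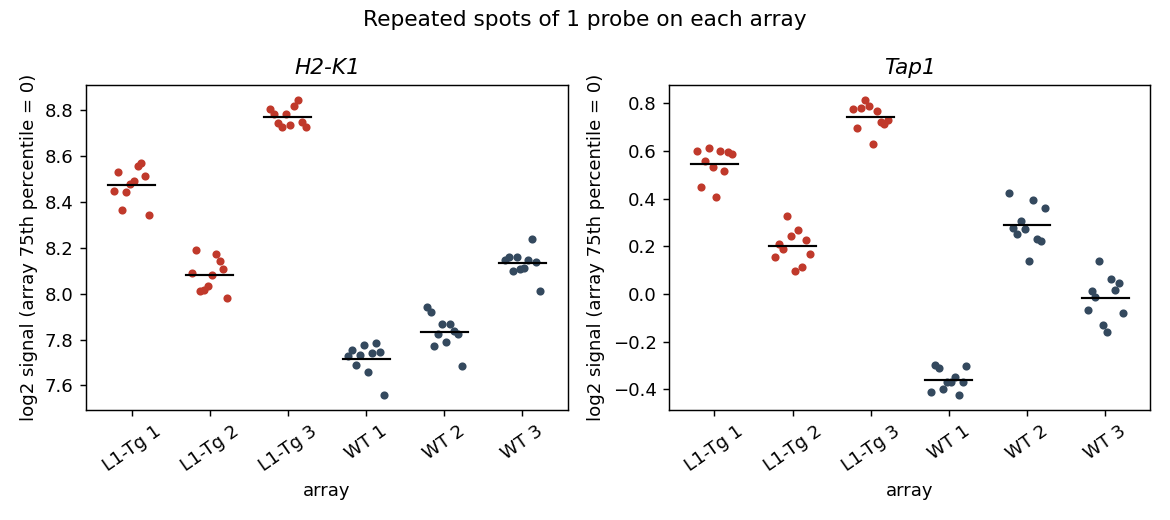
Each point is 1 of 10 spots of the H2-K1 probe (left) or the Tap1 probe (right) on an array, as log2 signal with the array's 75th percentile at 0, and bars are array means. Spots of an array lie close together while pools of the same genotype lie apart, and L1-Tg 2 (mean 8.08 for H2-K1 and 0.20 for Tap1) falls within the WT range for both genes.

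Each immunoproteasome subunit was set against the standard subunit it replaces, within the same array. The log2 ratio of Psmb8 to Psmb5 was -3.78, -4.25 and -3.73 in L1-Tg and -4.49, -4.34 and -4.17 in WT. L1-Tg 1 and L1-Tg 3 were above all WT pools and L1-Tg 2 was not. The ratio was higher in L1-Tg by 0.42 (exact two-sided permutation p = 0.2, adjusted over the 3 pairs 0.3).

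The ratio of Psmb9 to Psmb6 was -3.21, -3.84 and -2.77 in L1-Tg and -3.89, -3.23 and -3.92 in WT, a difference of 0.40 (exact two-sided permutation p = 0.2, adjusted 0.3). Again L1-Tg 2 lay within the WT range. The ratio of Psmb10 to Psmb7 was 1.36, 1.23 and 1.52 in L1-Tg and 1.68, 1.24 and 1.33 in WT, a difference of -0.05 (exact two-sided permutation p = 0.8). With 3 pools a group no p under 0.1 can be had. Psmb5, Psmb6 and Psmb7 themselves had differences of 0.04, 0.13 and 0.10, and the groups overlapped for all 3.

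**Figure D4:**
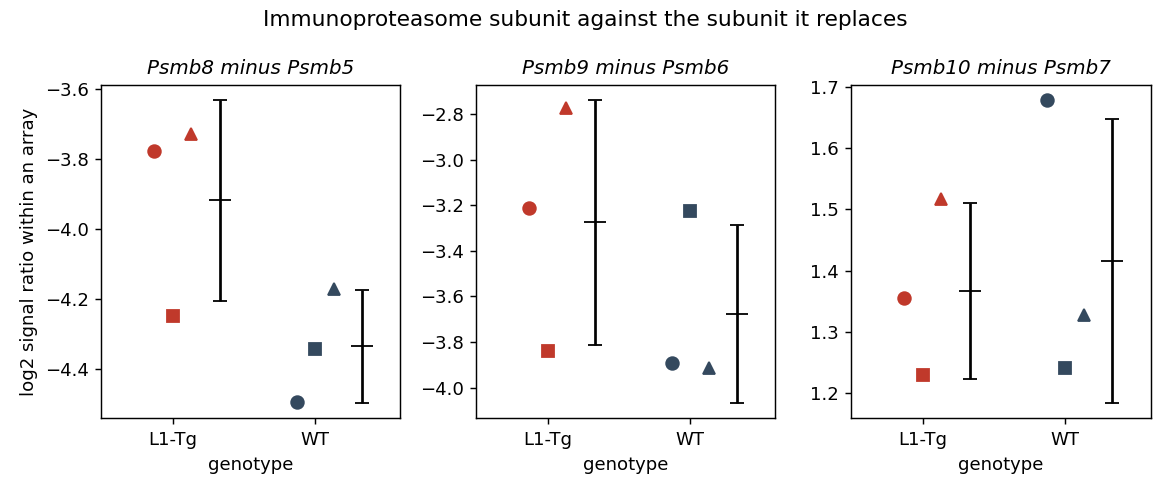
Points are the log2 ratio of an immunoproteasome subunit to its standard counterpart on 1 array, by genotype, with the mean and SD of 3 pools in black. Only differences between the genotypes have a meaning, since the 2 probes of a ratio differ in brightness. L1-Tg 2 (red squares) lies within the WT range in 2 of the 3 pairs and is the lowest pool in the third.

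The 7 genes on chromosome 17 had differences of 0.28 to 0.55 and the 3 on other chromosomes 0.05 to 0.24. Between the outermost of the 7, which are Tapbp and H2-D1, RefSeq places other genes of the MHC that belong to none of the lists used here, and 64 of these were tested. Of the 64, 16 were higher and 48 lower in L1-Tg, with a median difference of -0.11, against -0.03 over all tested genes. An unadjusted p under 0.05 was found for 2 in the higher and 7 in the lower direction (4.51% and 4.38% of all tested genes). The groups did not overlap for 4 that were higher and 17 that were lower (7.21% and 8.71% of all tested genes). With each array scaled to its median, which moved every gene by 0.11, 31 of the 64 were higher and 33 lower with a median of -0.0045, while the 10 class I genes had a median of 0.50 and all genes 0.08. This set of neighbours was chosen after the values were seen.

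Other genes of the route were described by lists. Among the other MHC-linked class I genes, 13 of 16 on the array were tested, 10 were higher and 3 lower in L1-Tg, and the median difference was 0.37. The median was 0.21 without WT 2 and 0.22 without L1-Tg 3. None passed the adjusted threshold, 5 had an unadjusted p under 0.05, all higher (4.51% of all tested genes), and in 6 every L1-Tg pool was above every WT pool (7.21% of all tested genes). H2-T10, a class I gene of the T region, read 2.11, 1.90 and 2.83 in L1-Tg and 1.18, 0.99 and 1.57 in WT. Its difference of 1.03 (SE 0.27, limma adjusted p = 0.430) was larger than that of any of the 10 genes above, and its groups did not overlap. H2-Q2 and H2-Q6 differed by 0.50 and 0.56 (limma adjusted p = 0.519 and 0.523). As with H2-D1, a probe of this list may also take up RNA of a related class I gene. The counts of the list may therefore hold repeated readings of the same RNA, which was not tested. H2-Q4, named after its values were seen, was the 1 gene of the list whose L1-Tg pools all lay below the WT pools, with a difference of -0.22.

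Class I-like genes outside the MHC were mixed. Of the 5 tested, 4 were higher and the median was 0.05, but without L1-Tg 2 only 2 were higher and the median was -0.04. Fcgrt, the heavy chain of the neonatal Fc receptor, had a difference of -0.24 with no overlap and a limma unadjusted p of 0.0369. It was the 1 gene of the list with such a p under 0.05 in the lower direction (4.38% of all tested genes). Cd1d1, which presents lipids, differed by 0.14. Mr1, which presents vitamin B metabolites, was the 1 gene of the list with an unadjusted p under 0.05 in the higher direction (4.51% of all tested genes). It was well above background on all 3 L1-Tg arrays but on 1 of 3 WT arrays, so that it entered the test only through L1-Tg. Its measured difference of 0.66 ran from 0.16 to 0.96 over the alternatives, and its WT level is poorly measured.

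The chaperones and trimming enzymes of the endoplasmic reticulum, which act beside Tapbp, had a median difference of 0.08. Of the 9, 7 were higher (5 of 9 without WT 2 and without L1-Tg 3) and 1, Erap1, which trims peptides, had an unadjusted p under 0.05, with a difference of 0.23 and no overlap (limma adjusted p = 0.546). Ganab, a glucosidase, differed by -0.27 and Tapbpl, a homolog of tapasin, by 0.19, both with overlap. Of the 6 cytosolic peptidases, 5 were higher (3 without WT 3) with a median of 0.09, and none had an unadjusted p under 0.05. The 3 with the smallest p were Npepps (0.11), Nrd1 (0.14) and Tpp2 (0.09).

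The core and cap subunits of the proteasome had higher means in L1-Tg, with medians below that of the 10 genes. All 11 other subunits of the 20S core were higher in L1-Tg (median 0.17), 5 with an unadjusted p under 0.05 and 7 with no overlap between the groups, where 42.8% of all tested genes were higher, 4.51% were higher with such a p and 7.21% were higher with no overlap. All 17 subunits of the 19S cap were higher (median 0.15), 5 with an unadjusted p under 0.05 and 9 with no overlap. When single pools were left out the core stayed at 11 of 11, and the cap was at 16 of 17 without L1-Tg 2, without WT 1 and without WT 3. The array median and no scaling shift all genes towards L1-Tg, and so could not lower these counts.

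Psma1, a ring subunit of the core, read 5.08, 5.08 and 5.13 in L1-Tg and 4.65, 4.76 and 4.70 in WT, a difference of 0.40 (SE 0.08, limma adjusted p = 0.334). Its pools lay much closer together than those of H2-K1 or Psmb9. Psma5 and Psma4 differed by 0.33 and 0.34, and Psmd14, Psmd3 and Psmd7 of the cap by 0.41, 0.29 and 0.28, each with no overlap.

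Among the 9 activator and assembly genes, 6 were higher and 3 lower (median 0.10, and 0.02 without WT 3). An unadjusted p under 0.05 was found for 1, which was higher (4.51% of all tested genes). In 4 every L1-Tg pool was above every WT pool (7.21% of all tested genes), and in 0 below. Psme1 and Psme2, the 2 chains of the interferon-inducible PA28 activator, were among these 4. They differed by 0.13 and 0.23 (limma unadjusted p = 0.175 and 0.07). Psmg4, an assembly chaperone, differed by 0.33, also with no overlap, and Psme3 by -0.41 with overlap. Over all 9 lists of the route, 86 of 90 genes on the array were tested. Of these, 71 were higher and 15 lower (median 0.13), where 42.8% of all tested genes were higher. An unadjusted p under 0.05 was found for 18 that were higher and 1 that was lower (4.51% and 4.38% of all tested genes). None passed the adjusted threshold (smallest limma adjusted p = 0.334).

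**Figure D5:**
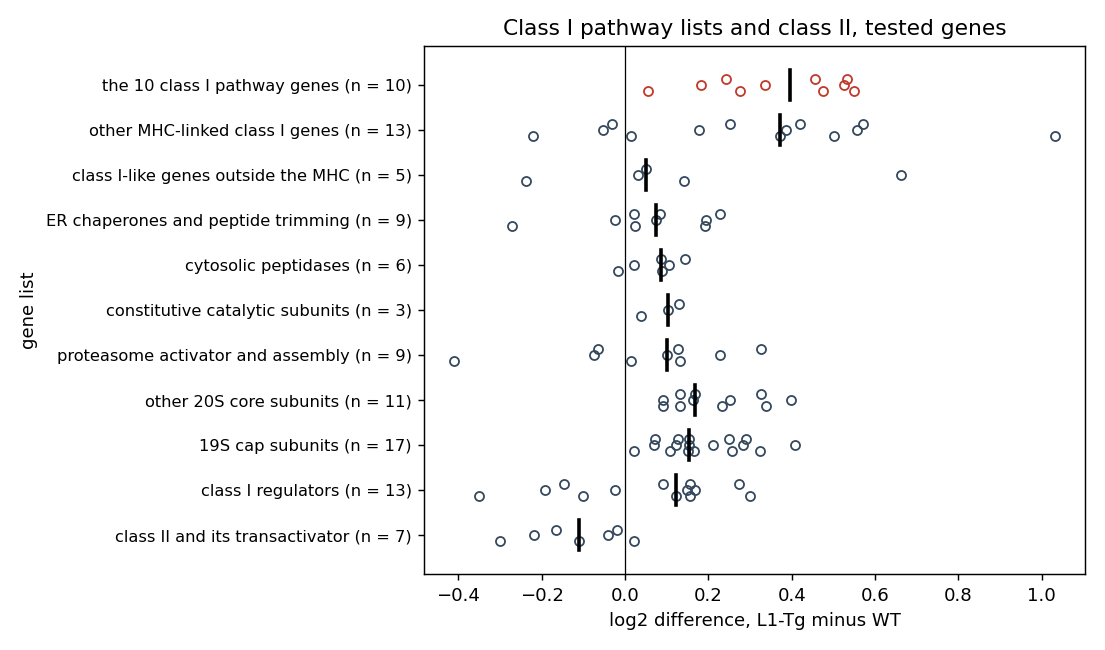
Each circle is the log2 difference of 1 tested gene, L1-Tg minus WT, in the 10 class I genes (red), the 9 lists of the route and the class II list (dark), and black bars are medians. The 10 class I genes (0.40) and the other MHC-linked class I genes (0.37) have the highest medians, the 20S and 19S genes lie above 0, and class II has a median of -0.11.

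The factors that control the route were split. Of 13 tested regulators, 8 were higher and 5 lower (median 0.12), and none had an unadjusted p under 0.05. Without WT 1, 6 were higher and 7 lower with a median of -0.0066, and with another background correction (normexp) the median was 0.04. Irf1, the interferon-induced activator of many class I genes, read 3.68, 3.28 and 3.42 in L1-Tg and 3.27, 3.90 and 3.51 in WT, a difference of -0.10 with overlap. Irf2 differed by -0.35, also with overlap. Irf9, an interferon-response factor, differed by 0.30 with no overlap (limma adjusted p = 0.560), and Nfyc, part of the Y box factor, by -0.15 with no overlap. Rfx5, which binds the X box, was well above background on 1 of the 6 arrays and was not tested.

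Class II genes present peptides from outside the cell, and 5 of the 7 listed lie between Tapbp and H2-D1, while Cd74, the invariant chain, and Ciita, the class II transactivator, lie on other chromosomes. Of the 7, 1 was higher and 6 lower, with a median of -0.11 and no p under 0.05. Cd74, H2-Eb1 and H2-DMb1 differed by -0.22, -0.30 and -0.17. WT 2 had the highest class II signal, with a summed level of 72.3 against 31.9 and 36.7 in the other WT pools and 32.6 to 52.4 in L1-Tg. Without WT 2 all 7 were higher in L1-Tg, with a median of 0.17, so that their direction rested on this pool.

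Markers of the cell types that carry class I were read beside these values, as sums of linear signal over each list, in units of the array's 75th percentile. Where 1 probe makes up most of a sum, the sum follows that probe. Whether such a probe reports only its cell type was not tested. The 8 Kupffer cell markers summed to 113 to 137 in L1-Tg and 65.2 to 133 in WT. Of the 8, 7 were higher in L1-Tg (median 0.31), none with an unadjusted p under 0.05, and the 3 with the smallest p were Cd5l (0.63), C1qa (0.47) and Clec4f (0.42), all with overlap. WT 1, the lowest pool for 9 of the class I genes, also had the lowest Kupffer sum (65.2). It had the lowest class II (31.9), NK cell (9.82) and B cell (2.78) sums as well. It had the highest cholangiocyte sum (0.978) and was not the lowest pool for the other marker lists. WT 1 was also the array with the fewest spots well above background (53.1%) and the most non-uniform spots (22). The Kupffer median was 0.11 without WT 1 and 0.61 without WT 3.

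Endothelial markers summed to 102 to 104 in L1-Tg and 96.0 to 105 in WT (6 tested, median 0.07, and 0.01 without WT 1), with Clec4g (0.14), Pecam1 (0.10) and Lyve1 (0.25) first by p. T cell markers summed to 81.4 to 97.5 and 90.4 to 226, a sum made almost wholly of Cd4, which differed by -0.71 with overlap. Cd3e differed by -0.30 with no overlap and an unadjusted p of 0.0452, and Cd2 by 0.63 with overlap. Of the 8 T cell genes tested 6 were higher (median 0.12), but 2 were with normexp (median -0.03) and 4 without WT 1 (median -0.11). Cd8a was well above background on all 3 L1-Tg arrays and on no WT array, and Cd3g on 3 and 2, so that both entered through L1-Tg.

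Dendritic cell markers summed to 250 to 275 in L1-Tg and 279 to 309 in WT, a sum made almost wholly of Siglech, which differed by -0.19 with no overlap. The sum stood above that of the Kupffer cell markers (113 to 137 in L1-Tg and 65.2 to 133 in WT). Whether the Siglech probe reports dendritic cells here was not tested. Ccr7 differed by 0.53 with no overlap and an unadjusted p of 0.0262, Itgax by 0.43 with overlap, and the 6 tested had a median of 0.00. B cell markers summed to 3.40 to 5.09 and 2.78 to 4.03 (5 tested, median 0.54), with Cd79a (0.36), Ms4a1 (0.91) and Cd79b (0.59) first by p, all with overlap. Their median was 0.24 without WT 1, 0.27 without L1-Tg 2 and 0.84 without L1-Tg 3. Cd79a was not well above background on all 6 arrays, so that it entered through 1 genotype alone. The B cell median without it was 0.56. NK cell markers summed to 10.6 to 11.6 and 9.82 to 13.6 (4 tested, median 0.02, and from -0.17 without WT 1 to 0.28 without WT 2), with Prf1 (0.09), Gzmb (0.46) and Nkg7 (-0.06) first by p. Gzmb also entered through 1 genotype alone, and the NK cell median without it was -0.06. The NK cell genes Ncr1, Klrb1c, Klrk1 and Eomes were above background on at most 1 array. Xcr1 and Cd209a of dendritic cells, Blk of B cells and Epcam of cholangiocytes were likewise not measured well enough to test.

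Monocyte markers summed to 11.1 to 15 in L1-Tg and 12.1 to 23.6 in WT, almost wholly from Itgam (-0.26), beside Cx3cr1 (0.61) and Ccr2 (0.20), and their median ran from -0.32 without WT 1 to 0.76 without WT 2. Ccr2 was not well above background on all 6 arrays and entered through 1 genotype alone. The monocyte median without it was 0.18. Neutrophil markers summed to 18.8 to 23.6 and 19.9 to 66.3, mostly from Elane (-0.71), while S100a8, S100a9 and Mpo differed by 0.99, 0.87 and 0.92 with overlap, and Mpo was well above background on 1 of 3 WT arrays. The neutrophil median of 0.90 was 0.40 with normexp. Stellate cell markers summed to 2.97 to 4.86 and 2.80 to 4.22 (5 tested, median -0.05, and from -0.23 without WT 2 to 0.04 without WT 3). Reln, a stellate cell marker, differed by -0.42 with no overlap (unadjusted p = 0.0057, limma adjusted p = 0.396), Des by -0.30 and Col1a1 by 0.25.

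Cholangiocyte markers summed to 0.524 to 0.748 in L1-Tg and 0.554 to 0.978 in WT (3 tested, median -0.36, and 0.03 without WT 1), with Krt19 at -0.39, Krt7 at -0.36 and Sox9 at 0.08. Krt7 was not well above background on all 6 arrays and entered through 1 genotype alone. The cholangiocyte median without it was -0.15. Hepatocyte markers summed to 4750 to 5710 and 5030 to 5810, with 1 of 6 higher and a median of -0.11, which was -0.0037 with the array median. Apoa1 differed by -0.49 with every L1-Tg pool below every WT pool (unadjusted p = 0.0306, limma adjusted p = 0.531), Hnf4a by -0.13 and Alb by -0.11. All 6 hepatocyte markers were detected in every pool. No gene of any marker list passed the adjusted threshold in limma. Over the marker lists an unadjusted p under 0.05 was found for Ccr7 in the higher direction and Cd3e, Reln and Apoa1 in the lower. This was 1 gene each of the dendritic cell (6 tested), T cell (8), stellate cell (5) and hepatocyte (6) lists, and the other marker lists had none. Of all tested genes, 4.51% were higher and 4.38% lower with such a p. The part of cell makeup in the class I differences was not tested.

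Profiles were searched among tested genes with a RefSeq symbol, leaving out the genes of all lists used here and provisional names such as Rik or Gm. Among these, the genes closest over the 6 arrays to the mean profile of the 10 class I genes were Mfsd8, Rab8b, Lsp1, Cmtr1 and Fzd7. The root mean square difference was 0.0637 to 0.0752 on the log2 scale. Their own differences were 0.28 to 0.36, and none passed the adjusted threshold (limma adjusted p from 0.504 to 0.608). Within the 10 genes, Psmb8 lay nearest to the mean profile (0.0708), and Psmb10 (0.273) and Psmb9 (0.268) lay farthest.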

How the data were processed

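Liver RNA of 3 L1-Tg and 3 WT pools was hybridised to 1-colour (Cy3) Agilent SurePrint mouse arrays, and the authors read the images with Feature Extraction 10.10.1.1 (names of the array design follow mm9). The deposited intensity values are Feature Extraction's processed signals, corrected for background and not scaled between arrays. The deposited series matrix held the same intensity values times 1 factor per array (2.46 to 2.98), whose origin is not given in the sources used here, and it served as an alternative. Here 3671 control spots were left out, non-uniform spots were set missing, signals were taken as log2 minus the array's 75th percentile, and repeated spots were averaged. The probe with the highest mean stood for a gene, and the gene entered the test if this probe was well above background in all 3 pools of L1-Tg, of WT or of both. Of 28685 RefSeq probes, 27235 were named through RefSeq (GRCm38.p6). All other probes kept the name that the array gives, and each such name was counted as a gene. Genotypes were compared with limma 3.58.1 in R 4.3.3 (lmFit, eBayes, two-sided, Benjamini-Hochberg over 22342 genes), which was tested on simulated data. The number of arrays limits the precision. The exact permutation test over the 6 pools was used for single values.

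The members and lists were chosen with earlier results of these data known. Named genes were all 10 members with each probe, the standard catalytic subunits, Psme1, Psme2, Irf1, Irf2 and Rfx5, the 3 tested genes with the smallest p of other lists, markers not above background, and the 5 nearest profiles. Of the genes this rule names, 1 is not reported here. Alternatives changed the scaling, background correction, source of values, filter, choice of probe, replicate block, variance and the pools used. H2-T22, H2-M2, H2-Bl, Cd1d2, Ly6c2 and Ly6g were not matched by symbol and not analysed here.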

Additional observations from a re-analysis of the deposited data

How the results depend on the processing

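No class I gene and no gene of the 9 other lists of the route passed the adjusted threshold of limma under any of the 17 alternatives, and 168 of 170 single-gene values kept their direction and their side of the threshold. The exceptions were Psmb10, which came to -0.024 without L1-Tg replicate 3, and Nlrc5, which came to -0.10 without WT replicate 1. With single pools left out Psmb10 ran from -0.024 to 0.11 and Nlrc5 from -0.10 to 0.38. The median difference of 0.40 ran from 0.29 to 0.48 as single pools were left out, and the number of genes with a higher mean from 9 to 10. The count with an unadjusted p under 0.05, 4 as reported, was 7 with quantile normalization, 7 with the array median in place of the 75th percentile, 1 without moderated variances, and 0 to 6 with single pools left out. Over all tested genes it was 1985 of 22342 as reported, 2082 with quantile normalization, 1886 with the array median and 1842 without moderated variances. With single pools left out it ran from 1146 of 22749 (without L1-Tg 3) to 2832 of 22536 (without WT 3). The count with no overlap, 2 as reported, was 4 with quantile normalization, 5 with the array median, 1 with no scaling, and 2 to 6 with single pools left out. The count past the difference index, 7 as reported, was 0 with a 2-fold change asked for as well, 3 with a modulus over 1, and 5 to 8 with single pools left out. The cause of these moves was not tested, except that fewer pools overlap less readily and a stricter criterion passes fewer genes. The shares of all genes with no overlap or past the index are given above for the reported setting only. Leaving out spots marked as population outliers (2 Tap1 spots), chosen after seeing the data, left the counts at 0, 4 and 2.

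Replicate numbers do not pair the pools. Deviations of same-numbered pools correlated at -0.16, 0.11 and 0.02 across genes. With the replicate number as a block in limma, the members past the adjusted threshold numbered 0, those with an unadjusted p under 0.05 numbered 3, and all genes past the adjusted threshold went from 29 to 11. Of all 22342 tested genes, 1848 had an unadjusted p under 0.05 under the block. The median difference under the block was 0.40. With 3 arrays a group, and intervals of the 10 differences reaching from -0.43 to 1.25, differences of the size seen here could not be told from 0 after adjustment.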
